A study of Homo sapiens with 12 samples.

Results

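The 2 region lists compared here map BrdU-labelled DNA in IMR90, a normal human lung fibroblast line, and in Saos-2, a human osteosarcoma line. On the 22 autosomes they held 5710 regions in IMR90 and 6061 in Saos-2, that is 11771 of the 169273 regions in the 6 lists of the series. All autosomal regions of both lists were taken, and a region counted as shared if 1 bp or more overlapped the other list and as unshared otherwise. The series covers 12 samples of 3 established lines and asks how replication relates to chromatin marks. IMR90 was used between passages 7 and 12, Saos-2 without a stated passage, and both grew in DMEM with serum and antibiotics and received no siRNA. Each line is represented by 1 library, 4 µg of labelled DNA entered each pull-down, and the labels give neither the length of the BrdU pulse nor a synchronisation step for them. H1 embryonic stem cells, at passages 35 to 45, given a non-targeting siRNA in the presence of HA 1077, a kinase inhibitor, and H3K18ac lists of untreated H1 and IMR90 serve below as readouts that played no part in classing the regions.

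BrdU is a thymidine analogue that cells build into DNA while they copy it, so an antibody against it recovers DNA made during the labelling. Human chromosomes start replication at many origins, of which a cell uses only some in each S phase, and the timing of whole domains differs between cell types. IMR90 keeps an orderly chromosome set, whereas Saos-2 is aneuploid and lacks working RB1, the gene of a tumour suppressor that restrains entry into S phase. Copy number changes the amount of DNA per locus. It was not measured in these lists, and its part in any difference below was not tested.

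The lists were alike in number and unlike in width. Saos-2 had 1.06 times as many regions as IMR90 and covered 1.65 times as much DNA, 2.00 Mb against 1.21 Mb. The median width was 100 bp in IMR90, the smallest width in the files, and 200 bp in Saos-2. In IMR90 61.4% of regions were of this single window and 1.49% were wider than 1 kb, against 38.8% and 4.37% in Saos-2. The score that the authors gave each region grew with width (Spearman correlation across regions 0.805 in IMR90 and 0.914 in Saos-2) and was used only to rank regions within a list. With 1 library a line there is no replicate error. The intervals given are 95% Wilson intervals for shares and exact binomial intervals for ratios of counts. They cover counting error only, and neighbouring regions are not independent. The number of reads behind each list is unknown.

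A minority of each list recurred in the other line. Of the IMR90 regions 1531 were shared with Saos-2 (26.8%, interval 25.7 to 28), and of the Saos-2 regions 1468 were shared with IMR90 (24.2%, 23.2 to 25.3). The bases in common came to 466 kb, which was 38.6% of the IMR90 bases and 23.3% of the Saos-2 bases. Joined into loci, the lists gave 10205 places, of which 1433 (14.0%) held both lines, 4179 only IMR90 and 4593 only Saos-2. How much of each list would recur in a second culture of the same line was not analysed here.

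Width separated shared from unshared regions in both lines. Single-window regions were shared in 374 of 3508 cases in IMR90 (10.7%, 9.68 to 11.7) and in 187 of 2353 in Saos-2 (7.95%, 6.92 to 9.11). Among regions of 300 to 500 bp the shares were 62.5% (59.3 to 65.6) and 33.8% (31.5 to 36.2). Beyond 1 kb they were 89.4% (81.1 to 94.3) of 85 regions in IMR90 and 66.0% (60.1 to 71.5) of 265 in Saos-2. With all ranks pooled, wide regions were thus shared more often in both lists. At each width the IMR90 regions had the larger shared part. A wider region also has more bases with which to meet another. At similar rank, however, wider IMR90 regions were not shared more often in the groups compared below. The median width of shared regions was 300 bp in IMR90 and 400 bp in Saos-2, against 100 and 200 bp for the unshared ones.

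Rank divided the IMR90 list more sharply than the Saos-2 list. With each list cut into 10 equal groups by score, the highest IMR90 group was shared in 531 of 571 cases (93.0%, 90.6 to 94.8), while neither of the 2 lowest groups had a shared region. A count of 0 of 571 allows a share of up to 0.525% by a floor of 3 counts and up to 0.668% by the Wilson interval. In Saos-2 the highest group was shared in 374 of 607 cases (61.6%, 57.7 to 65.4) and the lowest in 24 of 606 (3.96%, 2.68 to 5.83). The curves met near the middle, with 30.1% in IMR90 and 29.5% in Saos-2 for the seventh group. Of the 100 regions of highest rank, all 100 were shared in IMR90 (interval 96.3 to 100%), whereas Saos-2 had 73 shared ones (63.6 to 80.7%).

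**Figure D1:**
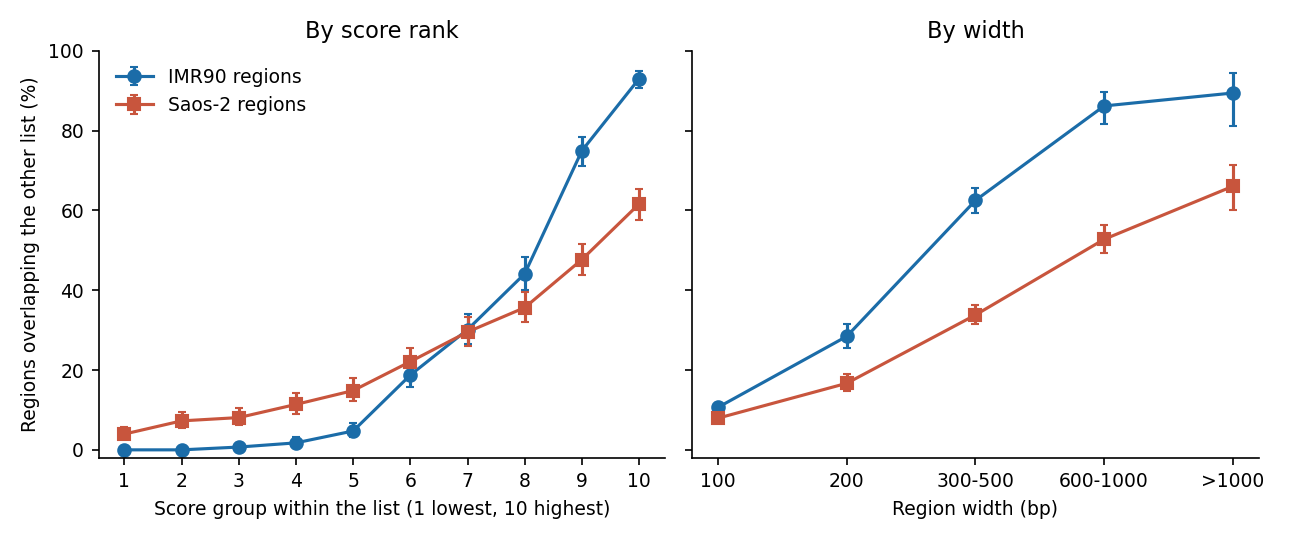
Share of regions (y axis, percent) that overlap the other line, by score group within the list (left) and by width in bp (right), with Wilson 95% intervals as bars. The IMR90 line climbs from 0 to 93.0% with score, while that of Saos-2 goes from 3.96% to 61.6%.

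The dependence on rank was present at equal width in both lines. Among single-window IMR90 regions, sharing went from 0 of 571 in the lowest group through 25.8% (21.7 to 30.3) of 396 in the sixth to 84.9% (76.9 to 90.5) of 106 in the eighth. Single-window Saos-2 regions went from 3.96% (2.68 to 5.83) of 606 in the lowest group through 13.8% (9.56 to 19.4) of 189 in the fifth to 22.5% (12.3 to 37.5) of 40 in the sixth. In the fifth group the IMR90 value was 5.46% (3.75 to 7.88), and in the sixth the intervals of the lines overlapped. From the sixth to the eighth IMR90 group, single windows were shared more often than all regions of the same group. In the eighth group the values were 84.9% against 44.1%, in the seventh 48.0% against 30.1% and in the sixth 25.8% against 18.7%. Wider IMR90 regions of these groups were thus shared less often than single windows. In Saos-2 the values were close, with 22.5% against 22.1% in the sixth group and 13.8% against 14.9% in the fifth. Within the highest IMR90 group wider regions were not shared more often, with 95.3% (91.8 to 97.4) at 300 to 500 bp and 89.4% (81.1 to 94.3) beyond 1 kb. In the highest Saos-2 group the values were 58.7% (44.3 to 71.7) and 67.4% (61.2 to 73.0) at these widths. Both pairs of intervals overlapped.

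Shared loci were mostly single regions in both lines, and the Saos-2 region was usually the wider. Of the 1433 shared loci 1316 (91.8%) held 1 region of each line, 86 held several IMR90 regions and 34 several Saos-2 regions. Saos-2 covered more bases in 809 loci (56.5%), IMR90 in 417 (29.1%), and 207 (14.4%) were equal. The median difference was 100 bp in favour of Saos-2, with quartiles of 100 bp in favour of IMR90 and 300 bp in favour of Saos-2. Of the loci with 1 region of each line, 111 had identical ends, in 645 (49%) the IMR90 region lay inside the Saos-2 region and in 330 the reverse held. The centres of 931 of them (70.7%) lay within 100 bp of each other. Within these pairs rank in IMR90 and rank in Saos-2 had a Spearman correlation of 0.402 and widths one of 0.337, given as descriptions of loci that share position, sequence and mappability.

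**Figure D2:**
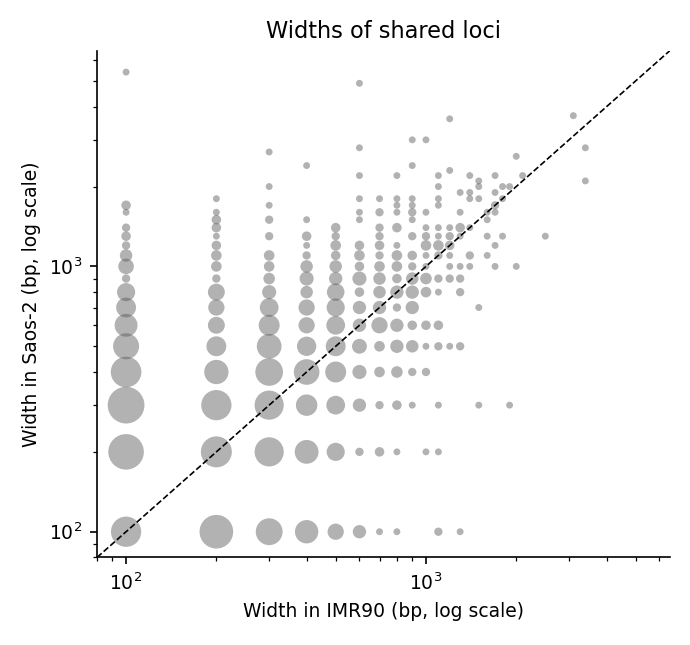
Bases covered at each shared locus in IMR90 (x axis) and Saos-2 (y axis), both in bp on log scales, with the area of a point growing with the number of loci and equal widths on the dashed line. Most loci sit above the line, 809 of 1433.

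Some shared loci differed in extent by several kb. On chromosome 5 at 1043201 to 1048600 Saos-2 had its widest region, of 5400 bp and rank 11, and IMR90 a single window at 1048301 to 1048400. On chromosome 1 at 53561201 to 53566100 a Saos-2 region of 4900 bp, rank 4, met 3 IMR90 regions of 600 bp in all. On chromosome 12 the first-ranked Saos-2 region, 132640101 to 132643100, met 4 IMR90 regions with 900 bp in common. At these last loci a continuous Saos-2 block was thus a row of short regions in IMR90. The opposite order was found on chromosome 1 at 41991801 to 41995200, the first-ranked IMR90 region, of 3400 bp, against 3 Saos-2 regions of 2100 bp in all, the best of rank 640. On chromosome 22 an IMR90 region of 1900 bp at 43891001 to 43892900 met 300 bp of Saos-2 regions, and on chromosome 16 one of 1500 bp at 12474301 to 12475800 also met 300 bp.

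Few loci stood at the top of both lists. Only 2 were among the 10 highest ranks of each line, 24 among the 100 highest and 186 among the 500 highest. The first of the pair lay on chromosome 14, at 105325001 to 105328100 in IMR90 (rank 3) and 105325101 to 105328800 in Saos-2 (rank 8). The other lay on chromosome 2, at 239393901 to 239395800 in IMR90 (rank 4) and 239393701 to 239395700 in Saos-2 (rank 5). The second-ranked IMR90 region, on chromosome 9 at 91673201 to 91675300, lay whole within a Saos-2 region of rank 21. That of rank 5, on chromosome 7 at 76626101 to 76627800, matched a Saos-2 region of 1900 bp but of rank 152. The 10 highest shared IMR90 regions all overlapped a region of the H1 control list, as did 8 of the 10 highest unshared ones, against 18.1% of all IMR90 regions. In Saos-2 the counts were 9 and 8 of 10, against 26.7%. The whole lists consist mostly of narrower regions of lower rank. In the highest score group 84.9% of shared and 55.0% of unshared IMR90 regions overlapped H1 control, and 89.8% and 72.5% of those of Saos-2.

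The strongest unshared regions ranked far lower in IMR90 than in Saos-2. The best IMR90 region without a Saos-2 partner was of rank 113, on chromosome 4 at 6513101 to 6514300, and a Saos-2 region began directly beside it with 0 bp between them. The next, on chromosome 9 at 132215501 to 132216900 (rank 164), had its nearest Saos-2 region 2.10 kb away, and that on chromosome 7 at 482701 to 483600 (rank 169) had it 390 kb away. Further ones lay on chromosome 20 at 61084101 to 61085800 (rank 176, 7.70 kb) and on chromosome 12 at 113011701 to 113012900 (rank 200, 277 kb). These IMR90 regions thus ranged from near misses to places far from any Saos-2 region.

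In Saos-2 the third-ranked region of the whole list had no IMR90 partner. It lay on chromosome 19 at 35787701 to 35790000, 191 kb from the nearest IMR90 region. Others were on chromosome 5 at 3322701 to 3324400 (rank 18, 122 kb away), on chromosome 3 at 194047301 to 194048800 (rank 19, 24.0 kb) and on chromosome 21 at 42364701 to 42366200 (rank 22, 166 kb). Of the 27 unshared regions among the 100 highest Saos-2 ranks, 25 (92.6%) were present in H1 control, against 26.7% of all Saos-2 regions. In the highest score group as a whole 72.5% of unshared and 89.8% of shared Saos-2 regions were present there. No arm held more than 3 of the 27.

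Most unshared regions were not near misses. Of the 4179 unshared IMR90 regions 376 (9.0%, 8.17 to 9.90) had a Saos-2 region within 1 kb, 21.1% within 10 kb and 59.5% within 100 kb, with a median distance of 61.1 kb. Of the 4593 unshared Saos-2 regions 378 (8.23%, 7.47 to 9.06) had an IMR90 region within 1 kb, 19.5% within 10 kb and 55.2% within 100 kb, with a median of 74.1 kb. The lowest IMR90 score group was farther away than the list as a whole, at a median of 173 kb, with 4 of 571 within 1 kb. In the lowest Saos-2 group the median was 92.9 kb, with 32 of 582 unshared regions within 1 kb.

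The H1 control list, which had no part in the classes, met shared regions far more often than unshared ones. It overlapped 18.1% of all IMR90 regions and 26.7% of all Saos-2 regions. Among shared regions the values were 56.0% (53.5 to 58.4) in IMR90 and 60.6% (58.1 to 63.1) in Saos-2, and among unshared regions 4.24% (3.67 to 4.89) and 15.9% (14.8 to 16.9). The gap was also present within a score group. In the highest group 84.9% (81.6 to 87.7) of 531 shared IMR90 regions were in H1 and 55.0% (39.8 to 69.3) of 40 unshared ones, and in Saos-2 89.8% (86.4 to 92.5) of 374 and 72.5% (66.5 to 77.9) of 233. At a single window the shares were 31.8% (27.3 to 36.7) against 1.85% (1.43 to 2.38) in IMR90, and 25.1% (19.5 to 31.8) against 4.20% (3.43 to 5.13) in Saos-2. Unshared Saos-2 regions thus recurred in H1 more often than unshared IMR90 regions. The Saos-2 regions are the wider ones, and at 300 to 500 bp the values were 26.7% (24.0 to 29.5) and 12.4% (9.30 to 16.2).

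H3K18ac, an acetylated lysine of histone H3 found at active promoters and enhancers, was mapped in H1 and IMR90. The H1 mark overlapped 9.44% of all IMR90 and 12.7% of all Saos-2 BrdU regions. It lay at 20.9% (18.9 to 23) of shared and 5.24% (4.61 to 5.96) of unshared IMR90 regions, and at 23.9% (21.8 to 26.2) and 9.12% (8.32 to 9.99) of the Saos-2 ones. Within the highest score group the difference was 35.4% (31.5 to 39.6) against 12.5% (5.46 to 26.1) in IMR90. In Saos-2 it was 43.0% (38.1 to 48.1) against 39.5% (33.4 to 45.9), with overlapping intervals. Shared Saos-2 regions were also ahead in the ninth group (26.3% against 19.9%) and the eighth (23.6% against 17.4%). The same held in the seventh (12.8% against 7.26%) and the sixth (11.9% against 7.20%), and the intervals overlapped in each of these groups. In IMR90 the gap narrowed down the list. In the ninth group the values were 19.4% and 5.59%, in the eighth 12.7% and 10.7%, in the seventh 8.72% and 7.27%, and in the sixth unshared regions were ahead with 9.05% (6.77 to 12.0) against 1.87% (0.514 to 6.56). The mark of IMR90 itself overlapped 2.45% of IMR90 and 2.46% of Saos-2 regions. It lay at 1.57% (1.06 to 2.32) of shared and 2.78% (2.32 to 3.32) of unshared IMR90 regions, and at 2.04% (1.44 to 2.90) and 2.59% (2.17 to 3.09) of those of Saos-2. None of the 40 regions of highest rank, 10 for each class and line, overlapped it. Within the highest score group it lay at 2.26% (1.30 to 3.91) of shared IMR90 regions and at 0 of 40 unshared ones (Wilson upper limit 8.76%), and in Saos-2 at 3.21% (1.84 to 5.52) and 2.58% (1.19 to 5.50). Both pairs of intervals overlapped.

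**Figure D3:**
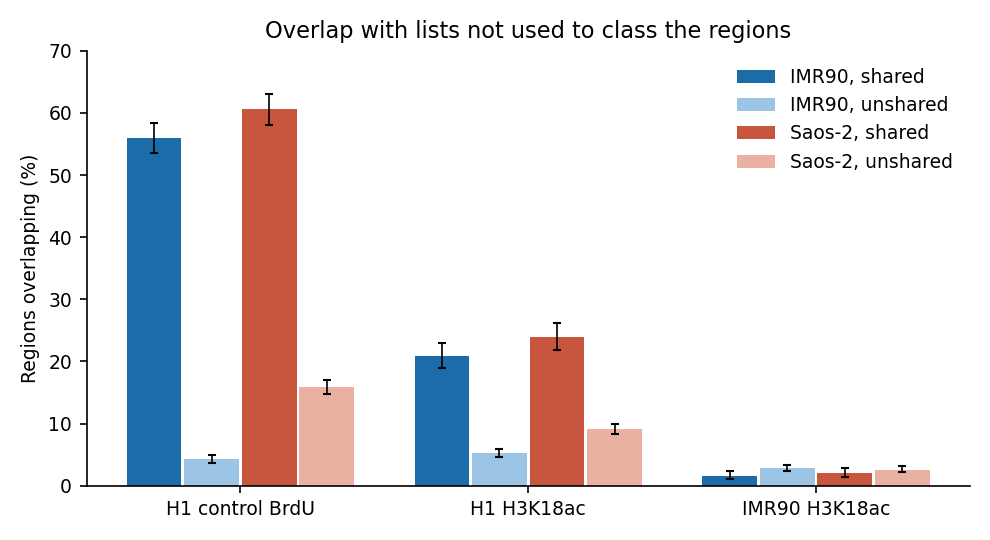
Share of shared and unshared regions of each line (y axis, percent) that overlap the H1 control BrdU list and the H3K18ac lists of H1 and IMR90, with Wilson 95% intervals. Shared regions stand above unshared ones for both H1 lists, and no bar of the IMR90 mark exceeds 2.78%.

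For most chromosome arms the counts did not separate the 2 lists, but a sizeable minority tilted to one line. Arms were parted at the longest stretch of a chromosome without a region in any list, and 40 arms held regions. Across them the counts had a Spearman correlation of 0.874, a description in which arm size is shared. After scaling to list totals, 24 arms had an interval that included 1, 9 were richer in IMR90 and 7 in Saos-2. Intervals are wide on arms with few regions, so 1 inside an interval does not show equal shares. Arm 12p was the most tilted to IMR90, with 53 regions against 23 in Saos-2, 2.45-fold after scaling (1.47 to 4.18). Arms 8p (73 against 41, 1.89-fold, 1.27 to 2.84) and 7p (159 against 108, 1.56-fold, 1.22 to 2.01) followed. On 9p there were 38 and 27 regions (1.49-fold, 0.888 to 2.54, an interval with 1 inside) and on 11q 198 and 147 (1.43-fold, 1.15 to 1.78). On 8p, 22 of the 27 bins of 1 Mb with a region were richer in IMR90, so the tilt was spread along the arm.

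The long arm of chromosome 19, a gene-dense arm, carried a surplus of Saos-2 regions, the highest ratio on this side after that of 21p. It held 327 of them against 153 in IMR90, 2.01-fold after scaling (1.66 to 2.46), while its short arm was even, with 205 and 210. Of its 32 bins 26 were richer in Saos-2. By segment the ratio was 3.97 (2.19 to 7.70) from 28 to 36 Mb, 1.38 (0.963 to 1.99) from 36 to 44 Mb, 1.70 (1.25 to 2.33) from 44 to 52 Mb and 3.56 (2.09 to 6.36) from 52 to 60 Mb. The ratio was higher in the outer segments than in the inner ones, although their intervals overlapped that from 44 to 52 Mb. Its Saos-2 regions were shared with IMR90 in 9.48% of cases and with H1 control in 46 of 327 (14.1%), below the 24.2% and 26.7% of the whole list. Restricted to the better-ranked 50% of regions, the arm's ratio of IMR90 to Saos-2 changed from 0.497 to 0.644.

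Other arms with more Saos-2 regions were 6q (141 against 81, 1.64-fold, 1.24 to 2.18), 18p (27 against 16, 1.59-fold, 0.826 to 3.16, with 1 inside) and 4p (184 against 124, 1.40-fold, 1.11 to 1.77). In covered bases the ratio of IMR90 to Saos-2 on 18p was 0.955 against 0.629 in counts. The surplus on 4p rested in part on 24 Saos-2 regions within 2 Mb of the arm boundary, where IMR90 had none, and its ratio was 0.997 in covered bases against 0.715 in counts. On 21p, where assembled sequence is short, Saos-2 had 32 regions and IMR90 1, a ratio of 30.1 with an interval from 5.04 to 1227. Among arms often gained in osteosarcoma, 6p had 137 Saos-2 regions against 97 (1.33-fold, 1.02 to 1.74) and 8q 214 against 158 (1.28-fold, 1.03 to 1.58). On 17p, also often gained, IMR90 had the higher count with 83 against 64 (1.38-fold, 0.982 to 1.94, with 1 inside). Of the H1 control regions 2.52% lay on 6p, where Saos-2 had 2.26% of its list and IMR90 1.70%. In the same order the shares were 2.62%, 3.53% and 2.77% on 8q and 0.969%, 1.06% and 1.45% on 17p. On 6q they were 2.58%, 2.33% and 1.42%. On 13q, the arm of RB1, IMR90 and Saos-2 were level at 140 and 151 (ratio 0.984, 0.776 to 1.25).

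**Figure D4:**
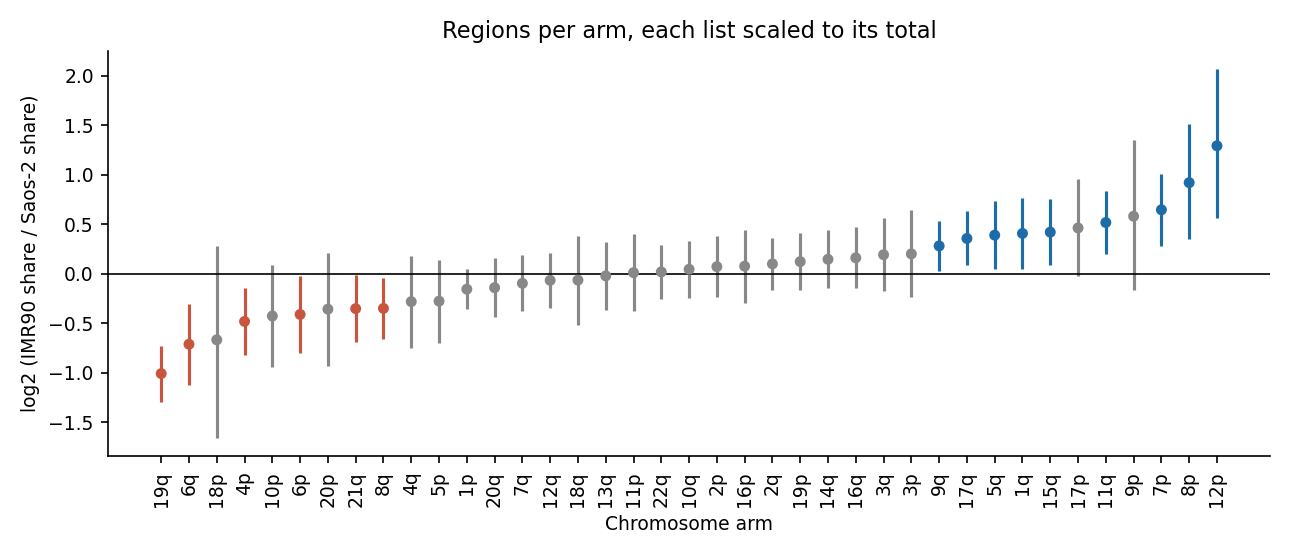
Share of IMR90 regions over share of Saos-2 regions for each arm (y axis, log2) with exact binomial 95% intervals. Blue arms have intervals above 0 and red arms below it, from 19q at the left to 12p at the right, and 21p (ratio 0.0332) is left out.

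Sharing also varied among arms. Over the 36 arms with at least 50 IMR90 regions, the shared part ran from 11% on 8p to 41.1% on 21q. Over the 35 arms with at least 50 Saos-2 regions it ran from 7.81% on 20p to 39.9% on 16q. Arm 6p was low in both lists, with 12.4% of IMR90 and 8.03% of Saos-2 regions shared.

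Shared regions were more frequent towards the ends of the arms in both lists. Within 5 Mb of the outermost region of an arm lay 29.9% of IMR90 and 32.8% of Saos-2 regions, against 22.4% of the H1 control regions. There 36.5% (34.2 to 38.8) of IMR90 and 29.9% (28 to 32.0) of Saos-2 regions were shared, and in the interior of the arms 22.7% (21.4 to 24.0) and 22.3% (21 to 23.6). Regions at the arm ends were also wider, with medians of 200 bp in IMR90 and 300 bp in Saos-2, against 100 and 200 bp in the interior. Sharing by position at equal width was not analysed here. Within 2 Mb of the arm boundary Saos-2 had 256 regions and IMR90 99, 2.44-fold after scaling (1.92 to 3.10), and 8.98% (6.06 to 13.1) of these Saos-2 regions were shared. The share of H1 control regions there, 2.04%, was nearer to the 1.73% of IMR90 than to the 4.22% of Saos-2. Of the 256, 87 were on 4 arms, and 21p, 4p and 16p led with 32, 24 and 17. No filter for repeats or for problem regions of the assembly was applied, and their part in this surplus was not tested.

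At 1 Mb the lists had the same broad layout. Of 2708 autosomal bins with a region in any list, 1078 held both lines, 308 only IMR90, 457 only Saos-2 and 865 neither. Counts per bin correlated at 0.748 (Pearson) and 0.603 (Spearman), which describes bins that share gene content and mappability. Over the 354 fuller bins compared below the Spearman value was 0.223. With H1 control the Pearson values were 0.720 for IMR90 and 0.755 for Saos-2. The fullest bins were full in both lines. Chromosome 12 from 132 to 133 Mb held 29 IMR90 and 40 Saos-2 regions, chromosome 10 from 134 to 135 Mb held 29 and 35, and chromosome 4 from 7 to 8 Mb held 30 and 28.

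Imbalance was judged in the 354 bins with at least 10 regions of both lists together. More than 2-fold richer in IMR90 after scaling were 64 bins (18.1%), and as many, 64 (18.1%), were more than 2-fold richer in Saos-2. Counting error alone is wide at these counts, and the interval of the ratio lay above 1 in 20 bins and below 1 in 35. The Saos-2 side had 11 of its 64 bins on chromosome 19, of 38 compared there, and the IMR90 side 10 on chromosome 1, of 43 compared. On chromosome 7, 7 of 17 compared bins were on the IMR90 side and 1 on the Saos-2 side. Of the bins on the Saos-2 side 29 lay within 5 Mb of an arm's end, of those on the IMR90 side 16, and of all compared 131.

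The bin with the greatest IMR90 surplus was the tip of 7p, chromosome 7 from 0 to 1 Mb. It held 26 IMR90 and 5 Saos-2 regions, 4.55 and 0.825 per 1000 of the list, a ratio of 5.52 (2.09 to 18.4), and 1 region in each list was shared. Next came chromosome 9 from 140 to 141 Mb with 27 and 11 regions (2.61-fold, 1.25 to 5.82), chromosome 16 from 1 to 2 Mb with 22 and 8 (2.92-fold, 1.25 to 7.58) and chromosome 22 from 43 to 44 Mb with 22 and 10 (2.34-fold, 1.06 to 5.52). In the first 3 of these bins every region of both lines lay within 5 Mb of an end of an arm. The bins on chromosome 16 from 89 to 90 Mb and on chromosome 17 from 77 to 78 Mb each had 27 and 16 regions (1.79-fold, 0.931 to 3.56), an interval with 1 inside. An IMR90 bin with no Saos-2 region at all was chromosome 1 from 44 to 45 Mb, with 11 regions. Set against a floor of 3 counts in Saos-2, it was at least 3.89-fold richer in IMR90, with 2.66 as the lower limit of the exact interval. It contains an IMR90 cluster of 4 regions at 44701001 to 44719300.

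The bins of greatest Saos-2 surplus were more one-sided. Chromosome 21 from 10 to 11 Mb held 26 Saos-2 regions and no IMR90 region, at least 8.16-fold, and 25 of them formed a single cluster at 10775001 to 10812300. Chromosome 4 from 49 to 50 Mb held 22 and none (at least 6.91-fold) and chromosome 16 from 33 to 34 Mb 15 and none (at least 4.71-fold). All regions of these 3 bins lay within 2 Mb of the arm boundary. H1 control had 2, 0 and 0 regions in them. These folds use a floor of 3 counts in IMR90, and the lower limits of the exact intervals were 6.18, 5.16 and 3.38. Among the better-ranked 50% of regions the difference of IMR90 minus Saos-2 on chromosome 21 was -0.990 per 1000, against -4.29 in the whole lists. On chromosome 4 it was also -0.990, against -3.63, so most of the surplus of both bins was of lower-ranked regions.

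Away from the arm boundaries, chromosome 19 from 41 to 42 Mb stood first with 31 Saos-2 and 5 IMR90 regions (5.84-fold, 2.25 to 19.2) and 6 in H1 control. Chromosome 22 from 48 to 49 Mb held 24 and 1 (22.6-fold, 3.69 to 930), with 11 in H1 control, and its best Saos-2 region was of rank 63. Chromosome 19 from 51 to 52 Mb held 29 and 7 (3.90-fold, 1.67 to 10.6), none of them shared. Chromosome 12 from 131 to 132 Mb held 19 and 3 (5.97-fold, 1.76 to 31.5) and borders the fullest bin of the autosomes, with its 40 and 29 regions. Chromosome 1 from 5 to 6 Mb held 17 and 2 (8.01-fold, 1.90 to 71.5), and both IMR90 regions there were shared. Of the 10 bins on this side 4 were on 19q.

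The 10 bins of IMR90 surplus held 38.5 per 1000 IMR90 regions, 15 per 1000 Saos-2 regions and 14.1 per 1000 H1 regions. The 10 of Saos-2 surplus held 37.5 per 1000 Saos-2 regions, 5.60 per 1000 IMR90 regions and 11.7 per 1000 H1 regions. The bins were chosen as the extremes of the IMR90 and Saos-2 counts, so these values are a description. Single bins differed in their H1 level. On chromosome 12 from 131 to 132 Mb H1 control had 2.83 per 1000, nearer to the 3.13 of Saos-2 than to the 0.525 of IMR90, and on chromosome 22 from 48 to 49 Mb it had 2.22, against 3.96 and 0.175.

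**Figure D5:**
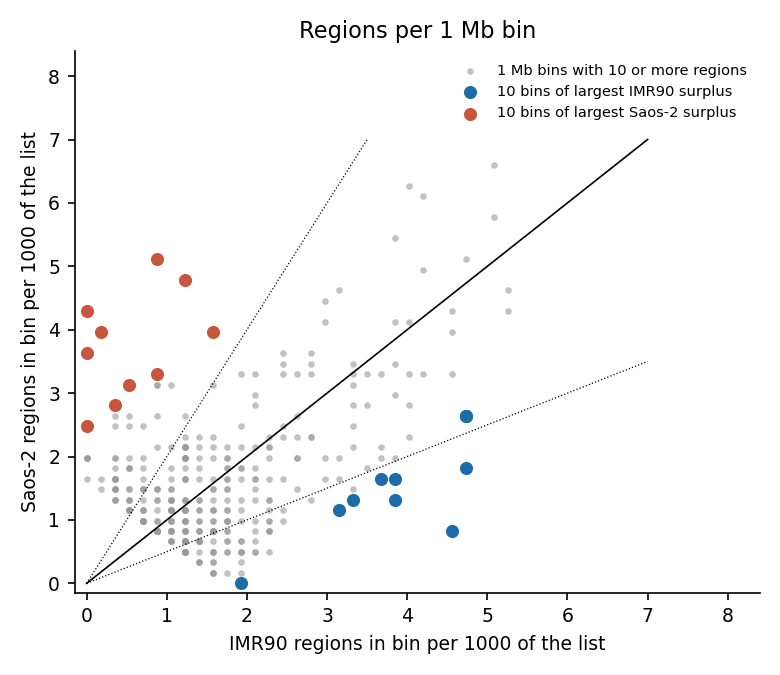
Regions per 1 Mb bin per 1000 regions of the list in IMR90 (x axis) and Saos-2 (y axis), for the 354 bins with at least 10 regions, with equality as a solid line and 2-fold as dotted lines. The 10 bins of largest surplus are coloured on each side, and 2 of the IMR90 bins coincide at 27 and 16 regions.

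Local crowding differed between the lists in degree. Runs of at least 3 regions with gaps of up to 10 kb numbered 139 in IMR90, with 8.44% of its regions, and 160 in Saos-2, with 10.2%. An IMR90 cluster usually held Saos-2 regions too, in 113 of 139 cases (81.3%, 74.0 to 86.9), whereas 90 of the 160 Saos-2 clusters (56.3%, 48.5 to 63.7) held IMR90 regions. The fullest IMR90 clusters had 8 regions each, on chromosome 22 at 43871401 to 43905200 with 7 Saos-2 regions and on chromosome 9 at 133224101 to 133263100 with 3. The fullest Saos-2 clusters without an IMR90 region were that on chromosome 21 with 25 regions and one on chromosome 4 at 49099301 to 49122900 with 12. A Saos-2 cluster of 11 regions on chromosome 14 at 106029001 to 106051700 held 6 IMR90 regions and includes the partner of the eighth-ranked IMR90 region.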

How the data were processed

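BrdU pull-downs were sequenced for 1 IMR90 and 1 Saos-2 library. The authors deposited 1 list of regions per library on hg19, and Bowtie 0.12.7 is named in the submitters' processing notes. Which caller made the regions, at which threshold and with which input, is not given in the sources used here. Each deposited region has a whole-number score of unstated meaning, used only as a rank within its list. Regions of equal score took ranks in order of chromosome and position, so a border between score groups can fall among equal scores. Coordinates are 1-based with both ends included, as the files give them.

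All comparisons ran in Python (3.11.15). They used scipy (1.17.1) for intervals, pandas (2.3.3) and numpy (2.4.6) for tables and matplotlib (3.10.9) for plots. Bins of 1 Mb took regions by midpoint. On chromosomes whose first region starts past 10 Mb, all regions count as long arm. Overlap counts were tested on simulated regions of known position. With 1 library a line no test between them was possible.

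The regions named are the highest ranks of each class, the 10 bins and 5 arms of largest imbalance on each side, and 6p, 8q, 17p and 13q. Regions on chromosome 8 and part of the others are not printed. The lists and classes were chosen with earlier results of these data known. No hg19 genome or gene annotation was used, so base composition and gene lists were not analysed here.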

Additional observations from a re-analysis of the deposited data

How the results depend on the processing

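No paired analysis was possible because each line has 1 library. The cause of the changes below was not tested beyond what the settings do by construction. The shares of IMR90 and Saos-2 regions with a partner, 26.8% and 24.2%, were 24.0% and 17.1% when 50% of the region had to overlap, 23.5% and 17.4% for the central window, and 33.4% and 30.5% within 1 kb, and 28.3% and 27.4% once regions up to 10 kb apart were joined. In the upper 50% of each list they were 43.6% and 38.5%. In lists of equal number the Saos-2 share was 25.5%. The 64 bins on each side became 21 and 21 of 151 bins in the upper 50%, 179 for IMR90 and 133 for Saos-2 of 732 with at least 5 regions, and 11 and 14 of 126 with at least 20.

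Leaving out regions within 2 Mb of the arm boundary, a setting chosen after seeing the data, left 5 arms over 1.5-fold richer in IMR90 in place of 3 and 2 richer in Saos-2 in place of 4. The 20 named bins kept their direction with covered bases, in the upper 50% and with unshared regions, and 17 did without regions near the boundary, where the other 3 had none left. Sizes moved more: in the upper 50% the bins at 10 Mb of chromosome 21 and 49 Mb of chromosome 4 changed from -4.29 and -3.63 per 1000 (IMR90 minus Saos-2) to -0.990 each. In covered bases those on chromosome 19 at 5 and 49 Mb changed from 2.03 to 0.64 and from -2.38 to -0.83.

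At the central window H1 control overlapped 44% of shared and 3.06% of unshared IMR90 regions and 43.6% and 10.5% of those in Saos-2. H1 H3K18ac overlapped 12.1% and 4.59% in IMR90 and 11.4% and 5.88% in Saos-2. IMR90 H3K18ac went the other way, at 0.980% (0.595 to 1.61) of shared and 2.61% (2.17 to 3.14) of unshared IMR90 regions. In Saos-2 it lay at 1.09% (0.672 to 1.76) of shared and 2.24% (1.85 to 2.71) of unshared regions.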
